A study of Rattus norvegicus with 2 samples.

Results

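The protease inhibitor genes Slpi, Serpinb1a, Stfa2 and Cst3, 4 of the 26976 gene symbols counted, were followed across the immune cells of the infarcted rat heart. They were taken by symbol, each from 1 line of the count matrix, and were chosen by their levels in myeloid cell types and their ratios between the libraries in earlier results on the same counts. Their levels are therefore given as descriptions, without tests. The study sorted CD45+ cells from left ventricles, infarct and border zone together, of wild-type rats 7 days after surgery. Its groups were MI, rats with a myocardial infarction, and MI+PUR-hAESC, infarcted rats that also received a polyurethane scaffold patch carrying human amniotic epithelial stem cells. The labels give 1 sample to each group and name neither strain nor age nor the number of hearts behind a sample. The question of the study was how the patch acts on cardiac immune cells. The deposited counts hold 2 libraries told apart by a barcode suffix. Which suffix belongs to which group is not stated in the sources used here. They are therefore called library 1 and library 2, and a gap between them carries no direction of treatment.

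Protease inhibitors limit the damage that enzymes from inflammatory cells do to tissue. Slpi encodes a secreted inhibitor of neutrophil elastase and cathepsin G, and Serpinb1a encodes an intracellular serpin that blocks elastase, cathepsin G and proteinase 3 inside granulocytes. Stfa2 belongs to the stefins, intracellular inhibitors of cysteine cathepsins that rodents carry as a cluster of close copies. Cst3 encodes cystatin C, a secreted inhibitor of the same class of cathepsins that is a familiar transcript of macrophages and dendritic cells.

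Serpinb1a and Stfa2 are the members that stood higher in library 2 among neutrophils, and their upstream sequences are shown for that reason. Both come from RefSeq on build GRCr8, run 5′ to 3′ on the gene's strand and end at the base before the annotated start. The Serpinb1a stretch is chr17:31799236-31799445 and the Stfa2 stretch is chr11:78049576-78049785, both on the plus strand. Capitals mark matches to the searched motifs.
Serpinb1a: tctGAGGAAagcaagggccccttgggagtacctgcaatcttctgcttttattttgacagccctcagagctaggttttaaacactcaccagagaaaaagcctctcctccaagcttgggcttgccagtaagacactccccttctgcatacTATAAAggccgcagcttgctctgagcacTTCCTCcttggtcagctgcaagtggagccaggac
Stfa2: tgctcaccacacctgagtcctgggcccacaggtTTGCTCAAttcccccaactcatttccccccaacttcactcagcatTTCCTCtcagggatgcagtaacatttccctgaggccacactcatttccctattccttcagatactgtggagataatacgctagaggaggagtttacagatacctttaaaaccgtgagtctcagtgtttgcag
The RefSeq promoter table matched 3 of the 4 members. In all, 5 motifs were searched on both strands of the 250 bases before the start, and no match overlapped another. Serpinb1a carried a TATA box (TATAAA) 62 to 57 bases upstream and the PU.1 core GAGGAA at 207 to 202 bases and, on the minus strand, at 34 to 29 bases. Stfa2 carried the PU.1 core on the minus strand 132 to 127 bases upstream and the C/EBP motif TTNNGCAA on the minus strand 177 to 170 bases upstream. Of 33469 promoters of the same length, 12.9% held the TATA box, 23.3% the PU.1 core and 9.22% the C/EBP motif. The interferon response core, present in 3.41% of promoters, and the GC box GGGCGG, present in 30.5%, had no match in either gene. Cst3 had a GC box match 108 to 103 bases and a C/EBP match 145 to 138 bases upstream. A match describes letters in this window and says nothing of binding.

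Library 1 held 14283 barcodes with a median of 3692 unique molecular identifiers (UMIs, each standing for 1 captured transcript) and library 2 held 15666 with a median of 4367.5. After filters and removal of called doublets, 13334 and 14434 cells remained, and 71 barcodes occurred in both libraries. Cells were gated by marker lists that contain none of the 4 members, and 11.2% and 14.9% of cells met no gate. Neutrophil-like cells numbered 4325 in library 1 and 1812 in library 2, classical monocyte-like cells 530 and 259, non-classical monocyte-like cells 332 and 756, and macrophage-like cells 2136 and 1792. There were 92 and 94 conventional type 2 dendritic (cDC2-like) cells and 45 and 45 conventional type 1 dendritic (cDC1-like) cells. Immature lymphocyte-like cells numbered 0 and 336, so the libraries also differed in makeup. Each gated class had its own markers among its 10 leading genes. Levels are CPM, the UMIs of a gene scaled to 1000000 UMIs of the class, with an exact 95% Poisson interval that covers counting error only, and with 1 library on each side there is no replicate spread to set a difference against. The assay reads transcript ends, so levels are compared between cells and never between genes.

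In neutrophil-like cells Slpi was higher in library 1, while Serpinb1a and Stfa2 were higher in library 2 and Cst3 was low in both. Slpi stood at 14847 CPM in library 1 (14773 to 14921) and 7734 CPM in library 2 (7663 to 7805), which is 1.92-fold higher in library 1 (1.90 to 1.94). Its median was 25 UMIs per cell in library 1 and 17 in library 2. With cells thinned to 1500 UMIs, 96.5% and 93.7% of neutrophil-like cells held a Slpi UMI, so nearly every such cell carried the transcript and the difference lay in the amount per cell. A gene was counted as past 2-fold when the log2 ratio of CPM plus 10 was at least 1 in size, among genes at 20 CPM or more in either library. In neutrophil-like cells 2 of the 4 members were past it, Serpinb1a and Stfa2, beside 2.62% of 3891 genes. The choice of members used this contrast, and nothing is read from that share. Slpi itself had a log2 ratio of -0.94. Over all classes and members the values nearest to the threshold were those of Slpi in NK-like cells, just outside at -0.98, and in activated neutrophil-like cells, just inside at -1.06. The median log2 ratio of all genes tested in neutrophil-like cells was -0.08.

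**Figure D1:**
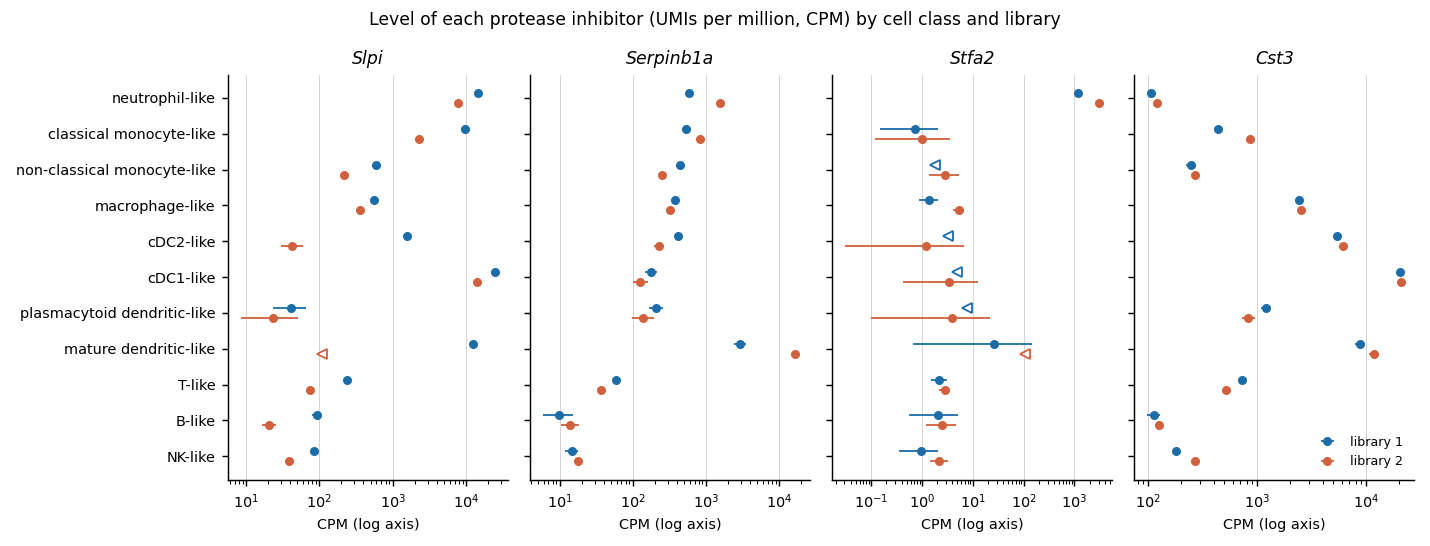
Level of each gene (CPM, log axis) in 11 cell classes of library 1 (blue) and library 2 (orange), with exact 95% Poisson intervals; open triangles mark classes with no UMI, drawn at the level of 3 counts. Stfa2 stands near or above 1000 only in neutrophil-like cells, and Cst3 is highest in cDC1-like cells at 20307 and 20761.

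Slpi was lower in library 2 in every neutrophil state. The states were ranges of marker scores: interferon-high (interferon-induced genes such as Isg15 and Ifit3), granule-high (Retnlg, Mmp8, Ltf and the like), activated (Il1b, Ptgs2, Cxcl2 and the like) and other. In granule-high cells Slpi was at 17602 and 7903 CPM (2.23-fold, 2.18 to 2.28), the highest of the states in library 1. Activated cells held 15142 and 7279 CPM (2.08-fold, 2.02 to 2.14). Interferon-high cells held 13661 and 8258 CPM (1.65-fold, 1.62 to 1.69), the smallest gap of the states. In the other cells it was at 12273 and 5301 CPM. Libraries spread further apart than states did: the lowest state of library 1 exceeded the highest of library 2.

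Classical monocyte-like cells, which express Fcnb, Vcan and Thbs1, showed a wider Slpi gap than neutrophil-like cells. Slpi was at 9738 CPM in library 1 (9643 to 9833) and 2285 CPM in library 2 (2219 to 2353), 4.26-fold higher in library 1 (4.13 to 4.39). Per cell the median was 33 against 6 UMIs, and at equal depth 85.4% against 61.8% of cells held a UMI. Slpi was the only member past 2-fold in this class, where 2.68% of 5043 genes were. Among cells with under 10 UMIs of the interferon list per 10000, the level was 9766 against 1998 CPM, a fold of 4.89. At 10 to 30 such UMIs the fold was 3.68, over 11 and 71 cells. At 30 or more it was 1.24, over 6 and 10 cells only. Cells without a C1q UMI, a macrophage transcript, showed a 4.59-fold gap and cells with one a 2.92-fold gap, so the excess in library 1 was present on both sides of the C1q division.

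Non-classical monocyte-like cells held much less Slpi than classical ones. They stood at 593 CPM in library 1 and 219 CPM in library 2 (2.71-fold, 2.46 to 2.98), and Slpi was the only member past 2-fold there, beside 1.17% of 5313 genes. The median cell had 0 UMIs in both libraries. The top 3 of 332 and 8 of 756 cells held 25.7% and 44.4% of the Slpi UMIs. At equal depth 26.1% and 12.5% of these cells held a UMI. The same share was 9.39% and 2.59% in B-like cells, 5.77% and 3.63% in T-like cells and 6.08% and 2.85% in NK-like cells, which serve as the background from free RNA. Median depth was 4682 and 4418 UMIs in non-classical monocyte-like cells and 2952 and 2869 in B-like cells.

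Dendritic cells divided sharply by type for Slpi. The cDC1-like cells, marked by Xcr1 and Clec9a, had the highest level of any class, 24954 CPM in library 1 (24561 to 25352) and 14083 CPM in library 2 (13778 to 14394), a fold of 1.77 (1.72 to 1.82). The median cell carried 277 and 158 UMIs. Slpi was all but confined to part of the class: 36 of 45 cells in library 1 and 31 of 45 in library 2 had 20 UMIs or more and together held 99.9% and 99.8% of the class's Slpi UMIs. Those cells also carried Xcr1 at 127 and 173 CPM and Clec9a at 239 and 237 CPM. The remaining 9 and 14 cells had Xcr1 at 0 and 11.3 CPM and Clec9a at 34.8 and 11.3 CPM. Their level of the macrophage transcript C1qa was 313 and 361 CPM. They were shallower, with medians of 4717 and 6809 UMIs against 15016 and 14178, and a limit of 20 UMIs depends on depth. Their whole cDC1 list summed to 1409 and 823 CPM against 2320 and 2284 CPM, with 7 and 8 of 8 markers detected.

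In cDC2-like cells the Slpi difference rested on a few cells. The class stood at 1596 CPM in library 1 and 42.4 CPM in library 2, a fold of 37.6 (26.9 to 54.2), and 2.68% of 5439 genes were past 2-fold. In library 1, however, 6 of 92 cells held 95.2% of the Slpi UMIs, and these carried Xcr1 at 47.4 CPM and Clec9a at 126 CPM, transcripts that were at 0 in the remaining 86. Without the 6 cells the level in library 1 was 81.9 CPM. Without only the 2 cells that had an Xcr1 or Clec9a UMI, an exclusion chosen after the values were seen, it was 595 CPM (545 to 649) and the fold was 14.0. Library 2 had no cDC2-like cell with 20 or more Slpi UMIs. The log2 ratio of -4.94 became -1.22 with a gate on thinned cells and -1.23 with classes taken from Leiden clusters. The Leiden class was much larger than the gated one, with 395 and 369 cells.

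Macrophage-like cells showed a similar concentration. Slpi was at 564 CPM in library 1 and 364 CPM in library 2 (1.55-fold, 1.50 to 1.61), and 85 of 2136 and 57 of 1792 cells held 84.4% and 81.9% of its UMIs. In these cells the neutrophil transcript S100a9 was at 1435 and 1345 CPM, against 130 and 158 CPM in the others. All 10 neutrophil markers were detected there in library 1 and 9 of 10 in library 2, summing to 2987 and 2498 CPM against 399 and 379 CPM in the others. Their median doublet score was 0.101 and 0.085 against 0.047 and 0.063, and their Cst3 was lower, at 987 and 1101 CPM against 2498 and 2574 CPM. The classical monocyte list also summed higher in these cells, at 2671 and 1647 CPM against 871 and 710 CPM in the others. Slpi was at 7434 and 6880 CPM there, against 14847 and 7734 CPM in neutrophil-like cells, whose S100a9 was at 85068 and 120838 CPM. The part of admixed neutrophil or monocyte RNA in this result was not tested. The remaining macrophage-like cells had 94.1 and 68.7 CPM of Slpi. With a gate on thinned cells the class stood at 357 and 341 CPM, and the log2 ratio went from -0.62 to -0.0663.

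Slpi was lower in library 2 in all 14 classes ranked by level, among them B-like cells (92.4 and 20.5 CPM), T-like cells (239 and 73.8 CPM) and NK-like cells (85.3 and 38.3 CPM). In these lymphocytes at most 20.1% of cells had any Slpi UMI before thinning, and in T- and NK-like cells few cells carried most of the level. The top 23 of 2278 and 38 of 3785 T-like cells held 79.5% and 79.1% of its UMIs, 13 and 20 NK-like cells 57.8% and 64.3%, and 6 and 12 B-like cells 40.6% and 19.8%. Slpi UMIs per 100 S100a9 UMIs were 17.5 and 6.40 in neutrophil-like cells, 63.6 and 11.4 in B-like cells and 145 and 52.0 in T-like cells, so the 2 transcripts did not keep 1 ratio across classes. In T-like cells that ratio rests largely on the same few cells. In the order of mean levels, cDC1-like cells, the 4 neutrophil states and classical monocyte-like cells came first, and each of them overlapped its neighbour when both libraries were considered. The step from classical monocyte-like to cDC2-like cells was the only one between neighbours without overlap.

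**Figure D2:**
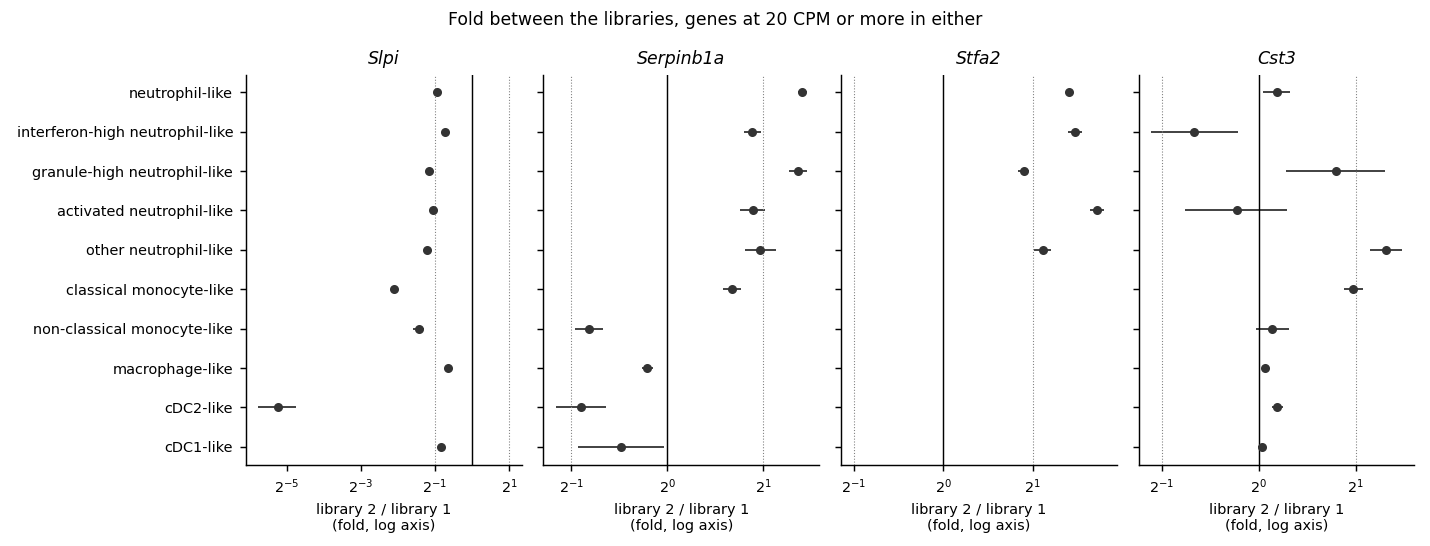
Fold of library 2 over library 1 (log axis) by class and neutrophil state, with exact 95% intervals for counting error; the solid line is no difference and dotted lines are 2-fold. Slpi lies left of the line in every class drawn, Stfa2 right of it in every neutrophil state, and Serpinb1a right in neutrophils and classical monocyte-like cells but left in the non-classical monocyte-, macrophage-, cDC2- and cDC1-like cells drawn.

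Serpinb1a, the intracellular serpin, went the other way from Slpi in neutrophil-like cells. It stood at 580 CPM in library 1 (565 to 595) and 1540 CPM in library 2 (1508 to 1572), 2.66-fold higher in library 2 (2.57 to 2.74). At equal depth 27.9% and 51.1% of neutrophil-like cells held a UMI, against 1.48% and 1.38% of B-like cells and 1.50% and 1.45% of NK-like cells. Unlike Slpi, the transcript was thus found in a fraction of the cells, and that fraction was larger in library 2. Granule-high cells held 754 and 1941 CPM (2.57-fold, 2.42 to 2.74). The interferon-high state had 918 and 1700 CPM, the activated state 471 and 873 CPM and the other cells 400 and 786 CPM. All 4 states were higher in library 2, and granule-high cells alone were past 2-fold, where 4.2% of 3664 genes were. The pooled fold exceeded that of each state, and the states took different shares of the libraries. Activated cells were 1916 of 4325 in library 1 and 283 of 1812 in library 2, interferon-high cells 604 and 959, granule-high cells 897 and 346 and other cells 908 and 224.

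The direction for Serpinb1a differed among the mononuclear phagocytes. Classical monocyte-like cells had 528 CPM in library 1 (506 to 550) and 844 CPM in library 2 (804 to 886), 1.60-fold higher in library 2. Non-classical monocyte-like cells had 442 CPM (410 to 475) and 251 CPM (234 to 268), 1.76-fold higher in library 1 (1.59 to 1.95). Neither is past 2-fold, but their intervals lie apart in opposite directions. Macrophage-like cells had 374 and 324 CPM, cDC2-like cells 420 and 225 CPM and cDC1-like cells 177 and 127 CPM, all higher in library 1. In 71.3% and 69.8% of macrophage-like cells at least 1 UMI was seen before thinning, so the low level was spread over many cells.

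High Serpinb1a levels were also found in rare cells. All 7 mature dendritic-like cells of library 1 and all 5 of library 2, marked by Ccl22 and Cacnb3, carried the transcript, with medians of 8 and 18 UMIs and highest counts of 47 and 332. Mast cell- or basophil-like cells, 13 and 9 in number, stood at 2141 CPM (1860 to 2453) and 1436 CPM (1144 to 1780). Lymphocytes stood near the low end of the order, T-like cells with 58.9 and 36.1 CPM, B-like cells with 9.75 and 13.9 CPM and NK-like cells with 14.6 and 17.9 CPM.

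Stfa2, the stefin, was a neutrophil transcript in both libraries. Neutrophil-like cells had 1167 CPM in library 1 (1147 to 1188) and 3095 CPM in library 2 (3050 to 3140), 2.65-fold higher in library 2 (2.59 to 2.71). Classical monocyte-like cells had 3 UMIs and 2 UMIs in all, macrophage-like cells 1.38 and 5.26 CPM, and T-like cells 2.18 and 2.83 CPM. The cDC1-like cells of library 1 had none, which allows up to 4.88 CPM by a limit of 3 counts. Endothelial-like cells of library 1 had 14.2 CPM, of which 22 of 23 UMIs came from 1 cell. Stfa2 UMIs per 100 UMIs of the neutrophil transcript S100a9 were 1.37 and 2.56 in neutrophil-like cells, 1.32 and 1.99 in T-like cells, 0.771 and 1.62 in NK-like cells and 0.647 and 2.51 in macrophage-like cells. In T-, NK- and macrophage-like cells these ratios lay at or below that of neutrophil-like cells of the same library, and in B-like cells of library 1 the ratio was 1.41 on 4 UMIs.

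Among neutrophils Stfa2 was uneven. The median cell had 0 UMIs in both libraries, while the 95th percentile was 18 UMIs in library 1 and 50 in library 2 and the highest cells had 73 and 170. At equal depth 23.9% and 42.3% of neutrophil-like cells held a UMI, against 0.165% and 0.486% of B-like cells. Activated cells held 810 and 2662 CPM (3.29-fold, 3.11 to 3.47), the widest gap, interferon-high cells 1139 and 3156 CPM (2.77-fold), other cells 1075 and 2322 CPM (2.16-fold), and granule-high cells 1950 and 3641 CPM (1.87-fold). The difference between libraries was therefore present in each state, and the shares of genes past 2-fold were 2.99% in activated, 2.25% in interferon-high, 6.5% in other and 4.2% in granule-high cells.

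Both Serpinb1a and Stfa2 were higher in granule-high and in interferon-high cells than in activated cells. From activated to granule-high cells Stfa2 was 2.41-fold higher in library 1 (2.30 to 2.52) and 1.37-fold higher in library 2 (1.30 to 1.44). Serpinb1a was 1.60-fold (1.50 to 1.71) and 2.22-fold higher (2.04 to 2.43), and Slpi 1.16-fold and 1.09-fold. Neither Serpinb1a nor Stfa2 was past 2-fold in both libraries, as 0.568% of 3694 genes were. Interferon-high cells exceeded activated cells in Serpinb1a 1.95-fold in both libraries (1.82 to 2.09 and 1.80 to 2.12). In Stfa2 they exceeded them 1.41-fold in library 1 (1.33 to 1.49) and 1.19-fold in library 2 (1.13 to 1.24). Against granule-high cells, Serpinb1a in interferon-high cells was higher in library 1 (1.22-fold, 1.13 to 1.31) but lower in library 2 (0.88-fold, 0.83 to 0.92). Neutrophil-like cells were also ordered by their granule-list UMIs and divided into 5 groups of equal size over both libraries. From the lowest to the highest group Serpinb1a went from 445 to 1004 CPM in library 1 and from 700 to 2159 CPM in library 2. Stfa2 went from 505 to 2217 CPM in library 1, and in library 2 from 1439 to 3404 CPM with a peak of 3774 CPM in the fourth group. Library 2 exceeded library 1 for both genes in all 5 groups, so the gap was also there at like granule scores. Ordered by interferon-list UMIs in the same way, Serpinb1a went from 370 to 962 CPM in library 1 and from 531 to 1577 CPM in library 2, with 1920 CPM in the fourth group, and library 2 was higher in all 5 groups. For Stfa2 the direction turned in the lowest interferon group, at 997 CPM in library 1 and 853 CPM in the 89 cells of library 2, with counting intervals that overlap, while library 2 was higher in the other 4 groups. States are ranges of a score: 18.3% and 21.8% of neutrophil-like cells lay within 20% of the granule boundary.

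**Figure D3:**
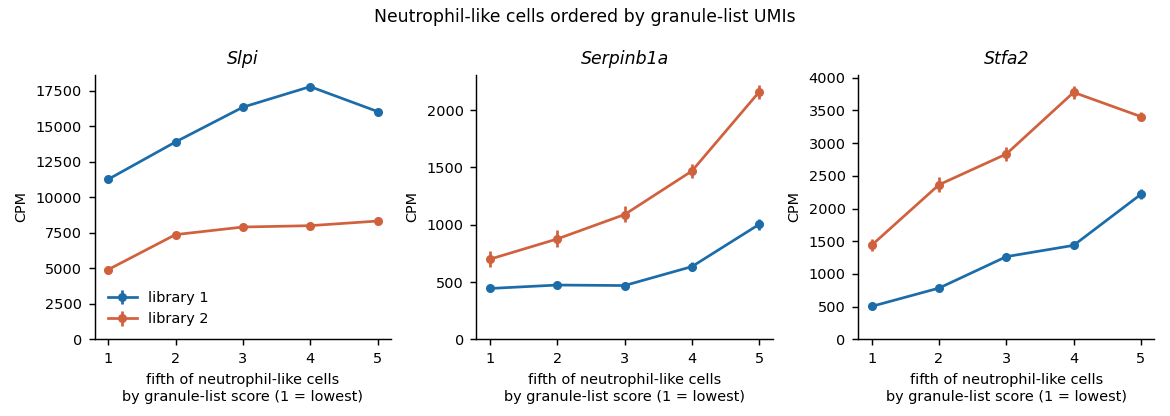
Level (CPM) of Slpi, Serpinb1a and Stfa2 in neutrophil-like cells ordered by granule-list score, in 5 groups of equal size over both libraries, with exact 95% Poisson intervals. Library 1 (blue) is above library 2 (orange) for Slpi and below it for Serpinb1a and Stfa2 in every group.

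In single cells Stfa2 and Serpinb1a were each found more often where the granule gene Retnlg was found. At equal depth Stfa2 was found in 35.2% of cells with a Retnlg UMI and 21.1% of cells without in library 1, and in 47.1% and 37.6% in library 2. Serpinb1a was found in 35.9% and 25.9%, and in 63.5% and 38.8%. Stfa2 was found in 25.4% of cells with a Serpinb1a UMI and 23.4% of cells without in library 1, with overlapping intervals, and in 45.1% and 39.4% in library 2.

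Among the ranked classes Cst3, cystatin C, was highest in conventional dendritic and macrophage-like cells, where the libraries lay within 1.14-fold of each other. Cst3 stood at 8760 CPM (7838 to 9759) and 11770 CPM (10527 to 13120) in the 7 and 5 mature dendritic-like cells, which were not ranked. In cDC1-like cells it was at 20307 CPM in library 1 (19952 to 20666) and 20761 CPM in library 2 (20390 to 21138), and in cDC2-like cells at 5411 and 6163 CPM. Macrophage-like cells had 2402 CPM (2378 to 2426) and 2511 CPM (2483 to 2538), a fold of 1.05 (1.03 to 1.06). Plasmacytoid dendritic-like cells went the other way, with 1199 and 829 CPM, 1.45-fold higher in library 1 (1.23 to 1.71). The sign of the small gap in macrophage-like cells turned with TMM scaling, with a mean over cells and with a gate on thinned cells. No step between the first 4 classes of the order, which were cDC1-like, cDC2-like, macrophage-like and endothelial-like cells (1338 and 1601 CPM), had overlapping libraries. In macrophage-like cells Cst3 was lower where the injury-associated gene Spp1 was high: 2699 and 2656 CPM under 5 Spp1 UMIs per 10000, 1997 and 2236 CPM from 5 to 20, and 1923 and 2006 CPM at 20 or more. C1qa went the same way, from 4098 and 5011 CPM to 710 and 1169 CPM.

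**Figure D4:**
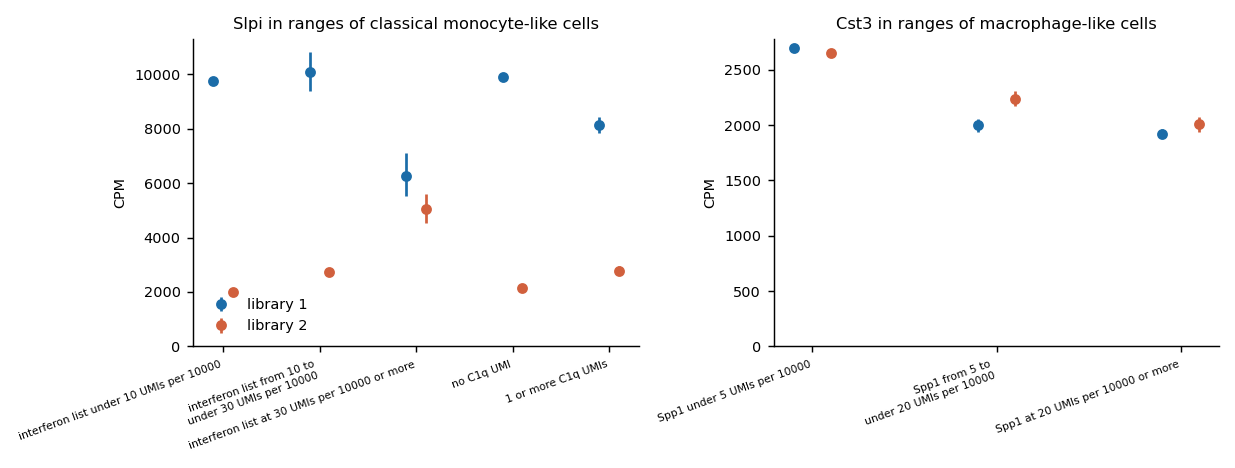
Left, Slpi level (CPM) in classical monocyte-like cells within ranges of interferon-list UMIs and with or without C1q; right, Cst3 level in macrophage-like cells within ranges of Spp1, with exact 95% Poisson intervals. Slpi is higher in library 1 (blue) in each range, and Cst3 declines from about 2699 to 1923 in library 1 as Spp1 rises.

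Classical monocyte-like cells had a wider Cst3 gap than these, with 433 CPM in library 1 (413 to 454) and 852 CPM in library 2 (812 to 894), 1.97-fold higher in library 2 (1.84 to 2.10) at a log2 ratio of 0.96. The gap was 1.89-fold in cells without a C1q UMI and 2.52-fold in cells with one. Non-classical monocyte-like cells had 247 and 271 CPM. Among lymphocytes, NK-like cells had 180 and 268 CPM, 1.49-fold higher in library 2 (1.39 to 1.60), and T-like cells 719 and 519 CPM, 1.38-fold higher in library 1 (1.35 to 1.42). Few cells carried much of these levels. The top 13 of 1290 and 20 of 2037 NK-like cells held 43.0% and 55.2% of the Cst3 UMIs. For T-like cells the top 23 of 2278 and 38 of 3785 held 35.3% and 47.0%. At equal depth 14.1% and 15.7% of NK-like cells held a Cst3 UMI, with overlapping intervals. In the classical cells the direction was thus opposite to that of Slpi, and it held on both sides of the C1q division. Neutrophil-like cells had 107 and 121 CPM, of which 17 cells in library 1 and 11 in library 2 held 57.6% and 63.9%. Those cells had S100a9 at 11006 and 35821 CPM against 86668 and 122527 CPM in the others, and C1qa at 136 and 324 CPM against 18.4 and 22.8 CPM. In the other neutrophil-like cells, those in none of the 3 scored states, Cst3 was at 312 and 775 CPM. It was past 2-fold there (2.48-fold, 2.21 to 2.78), beside 6.5% of 4787 genes. Within that state 9 of 908 and 2 of 224 cells held 67.9% and 62.9% of the Cst3 UMIs. The log2 ratio of 0.17 over all neutrophil-like cells turned to -0.15 with doublets kept, -0.88 with a gate on thinned cells and -0.42 with Leiden clusters, so no direction is given for Cst3 in neutrophil-like cells.

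Other protease inhibitors and proteases were counted from lists chosen with earlier results of these data known. Of 16 other serpins listed, 14 were measured. Of those tested, 0 of 1 was past 2-fold in neutrophil-like, 1 of 3 in classical monocyte-like, 1 of 1 in non-classical monocyte-like and 0 of 2 in cDC2-like cells, each higher in library 1. Serpinb6a, an intracellular serpin, was higher in library 1 in classical monocyte-like (103 and 41.6 CPM), non-classical monocyte-like (154 and 56.5 CPM) and macrophage-like cells (206 and 87.0 CPM), past 2-fold in each. In macrophage-like cells 0.983% of 5390 genes were past 2-fold. Timp1, an inhibitor of matrix metalloproteases, was at 462 and 152 CPM in classical monocyte-like cells and 24.8 and 4.60 CPM in neutrophil-like cells, past 2-fold in both and the only gene past it among the 4 and 5 tested of its list. Cystatins and stefins had 4 members tested in neutrophil-like cells and none past 2-fold: Cstb, stefin B, had 1393 and 1041 CPM and Fetub 172 and 174 CPM. In non-classical monocyte-like cells 1 of 2 was past 2-fold, Cst7, at 88.7 and 31.2 CPM. Of the whey acidic protein family, to which Slpi belongs, 8 other genes were measured and none reached 20 CPM in these classes.

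Proteases were counted in the same way, and the cysteine protease list held caspases and calpains beside cathepsins. Of the 11 listed serine proteases only Elane, neutrophil elastase, reached 20 CPM in neutrophil-like cells, at 81.0 and 40.9 CPM. In neutrophil-like cells 2.62% of 3891 genes were past 2-fold. Of 11 cysteine proteases tested there, none was past it in library 1 and 1 in library 2. It was Casp1, caspase-1, not a cathepsin, named after its values were seen, at 56.3 and 154 CPM. Their median log2 ratio was -0.01 beside -0.08 for all genes. In classical monocyte-like cells 10 were tested and none was past 2-fold: Ctsl, cathepsin L, had 1770 and 935 CPM and Ctsb, cathepsin B, 994 and 881 CPM. In macrophage-like cells Ctsb had 1901 and 1369 CPM, and 0 of 11 were past 2-fold. Mmp8, neutrophil collagenase, a metalloprotease from the list of other proteases, had 834 and 1270 CPM in neutrophil-like cells. Of 5 genes of that list tested in classical monocyte-like cells 1 was past 2-fold, beside 2.68% of 5043 genes. It was Adam8, at 24.6 and 7.02 CPM, also named after its values were seen.

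Stfa2 has close copies. Stfa2l1, for which RefSeq lists Stfa2 as an older name, had 68.4 and 109 CPM in neutrophil-like cells and Stfa3 14.7 and 24.6 CPM, so the authors' counting could divide reads between copies. Both were likewise higher in library 2 in neutrophil-like cells. RefSeq also lists pseudogenes of Slpi, Serpinb1a and Cst3.

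Genes most like each member were taken by Pearson correlation of log2 (CPM plus 10) over 28 points, 14 classes in each of 2 libraries, among 5650 genes, as a description over points that share libraries and depth. The neutrophil states entered as separate classes, in place of the neutrophil-like class as a whole. Slpi was most like Anxa1, the annexin A1 gene (0.886), then Actg1, Tspo, Rab32 and Nlrp3 (0.843). Serpinb1a was most like Tf (0.939), Alox5ap, Cd302, Clec12a and Taldo1 (0.924). Stfa2 was most like Mgam (0.995), Nlrp12, Fcar, Fetub and Pglyrp1 (0.987). Cst3 was most like Txndc17 (0.935), Dpysl2, Dbi, Arpin and Cox6c (0.911). Between members the correlation was 0.711 for Slpi and Serpinb1a, 0.649 for Slpi and Stfa2 and -0.621 for Stfa2 and Cst3.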

How the data were processed

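UMI counts for each gene in each barcode, not normalized, were deposited by the authors, and per the file headers Cell Ranger 4.0.0 produced them. The genome build and annotation were not given in the sources used here. There were 32623 rows, and rows of 1 symbol were added up to 26976 symbols. A deposited table of 33756 barcodes shares 111 with the matrix and was not used. The members and lists were chosen with earlier results of these data known, and the gate's scoring was set after the data were seen.

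Barcodes with 200 genes or more and at most 20% mitochondrial UMIs were kept, and Scrublet run per library removed 634 (4.54%) and 997 (6.46%) doublets. A cell took the class with the largest share of markers holding a UMI, with at least 3 markers and a lead of 0.1. States took interferon (100 UMIs per 10000), then granule (50), then activated (100) scores. Counts were summed per class and library, with exact 95% Poisson, binomial and conditional intervals, which cover counting error only. The ratio is log2 of CPM plus 10. The ratio calculation was tested on simulated data. Named genes are the 4 members, the 5 genes most like each, and up to 4 genes of highest CPM from each pathway list. Alternatives used edgeR 4.0.16 for TMM factors. Scanpy 1.11.5, leidenalg 0.10.2, scipy 1.17.1, numpy 2.4.6, pandas 2.3.3 and matplotlib 3.10.9 were used under Python 3.11.15 and R 4.3.3.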

Additional observations from a re-analysis of the deposited data

Results flagged for a closer look

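Serpinb1a went in opposite directions between the libraries in different classes. Its log2 ratio of library 2 over library 1 was 1.39 in neutrophil-like cells and 0.67 in classical monocyte-like cells, but -0.79 in non-classical monocyte-like cells and -0.87 in cDC2-like cells. With 1 library on each side the difference between classes was not tested.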

How the results depend on the processing

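No paired analysis was possible because each group has 1 sample and the libraries carry no replicate number. For the same reason no replicate could be left out. Of 277 alternatives for the log2 ratios of library 2 over library 1, 214 stayed within the counting interval of the reported value, 55 moved beyond it and 8 turned sign where that interval left out 0, while sign changes of any kind numbered 13. Of 108 alternatives for ratios between neutrophil states 87 stayed, 20 moved and 1 changed sign. The cause of these moves was not tested.

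For the log2 ratio of library 2 over library 1, keeping doublets gave -0.96 for Slpi and 1.31 for Serpinb1a in neutrophil-like cells. With TMM scaling neutrophil-like cells had -0.90 for Slpi and 1.44 for Stfa2, classical monocyte-like cells -2.18 for Slpi and 0.86 for Cst3, and cDC1-like cells -0.92 for Slpi and -0.0585 for Cst3. The gate on thinned cells gave -2.01 for Slpi and 0.85 for Cst3 in classical monocyte-like cells, -0.71 and 0.32 in cDC1-like cells, and -1.22 for Slpi in cDC2-like cells. Leiden clusters gave -2.16 for Slpi and 0.69 for Cst3 in classical monocyte-like cells and -1.23 for Slpi in cDC2-like cells, and formed no cDC1-like class. The mean over cells gave -1.99 for Slpi in classical monocyte-like and -0.89 in cDC1-like cells. Without cells with an Xcr1 or Clec9a UMI, chosen after seeing the data, Slpi in cDC2-like cells was at -3.53 in place of -4.94.

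All 13 sign changes between the libraries were those of Cst3. In macrophage-like cells it went from 0.06 to -0.0229 with the gate on thinned cells, -0.0253 with TMM scaling and -0.000400 with the mean over cells (0.0180 with Leiden clusters). In neutrophil-like cells it went from 0.17 to -0.15 with doublets kept, -0.88 with the gate on thinned cells and -0.42 with Leiden clusters. The gate on thinned cells also gave -0.13 in granule-high neutrophil-like and -0.14 in cDC2-like cells. In activated neutrophil-like cells Cst3 went from -0.19 to 0.53 with doublets kept, 0.41 with the gate on thinned cells, 0.18 with the equal doublet score limit and 0.13 with the mean over cells, and in cDC1-like cells the TMM value above replaced 0.03. Slpi in macrophage-like cells kept its sign but went from -0.62 to -0.0663 with the gate on thinned cells and -0.40 with Leiden clusters. Slpi in interferon-high over activated cells of library 1 turned to 0.0168 with TMM scaling.

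For granule-high over activated cells, TMM scaling gave 0.99 and 1.52 for Serpinb1a and 1.58 and 0.83 for Stfa2 in library 1 and library 2. The gate on thinned cells gave 1.17 for Stfa2 in library 1 and 1.29 for Serpinb1a in library 2, and the mean over cells 1.28 for the latter. The number of genes past 2-fold went from 102 to 162 in neutrophil-like, 135 to 222 in classical monocyte-like, 53 to 90 in macrophage-like, 146 to 319 in cDC2-like and 285 to 588 in cDC1-like cells with a pseudocount of 1 CPM. With the mean over cells it was 261 in cDC2-like and 599 in cDC1-like cells, with Leiden clusters 33 in cDC2-like cells, and with the gate on thinned cells 587 in cDC1-like cells. A doublet score under 0.2 in both libraries, also chosen after seeing the data, moved 2 log2 ratios, Cst3 in neutrophil-like cells to 0.45 and Slpi in macrophage-like cells to -0.51. Shares of cells moved with the thinning depth in 82 of 144 cases, and classes of under 100 cells give the widest intervals.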
